A study of Drosophila melanogaster with 12 samples.

Results

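Amyrel and tobi are a pair of genes for carbohydrate-splitting enzymes whose transcript levels were followed in whole male fruit flies on a control or a high-sugar diet. They were chosen by measured values: both had already been seen to be lower on the high-sugar diet in these same arrays. The values of the diet comparisons below are therefore a description of the genes selected on them, and their adjusted p-values give a place among all genes, not independent evidence. Probe sets were taken where the array annotation names exactly 1 of the symbols by gene identifier. Each gene had 1 such probe set (1623601_at for Amyrel, gene 36863, and 1623521_at for tobi, gene 43072), so the rule of keeping the brightest had no choice to make. The pair makes 2 of the 10418 genes tested.

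RNA of whole adult Drosophila melanogaster males of the wild-type strain Canton-S was measured on Affymetrix arrays, 12 in all. The flies entered the experiment at an age of 3 to 5 days. In the groups of 2 days they ate a control or a high-sugar diet for 2 days and were killed at 5 to 7 days of age. In the groups of 4 weeks the same diets were given for 4 weeks and the flies were 31 to 33 days old at death. There were 4 groups with 3 arrays each, biological replicates according to the labels. No transgene or drug was used in any group. The diets' composition and the number of flies per replicate are not given in the sources used here, and where replicates do not come from separate cultures, p-values measure the spread between these samples only. Feeding time, age and any processing day of the arrays cannot be told apart.

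Flies break down dietary starch with alpha-amylases, which release maltose and short glucose chains, and with maltases (alpha-glucosidases), which split these into glucose, mainly in the midgut. Amyrel is a diverged relative of the amylases. The gene tobi, named as a target of brain insulin, codes for a protein of the alpha-glucosidase type made in gut and fat body, and in earlier work its transcript answered to insulin-like peptides, to adipokinetic hormone (AKH, the fly counterpart of glucagon) and to the protein and sugar of the food. Glucose in the food is known to lower transcripts of digestive carbohydrases in flies, a response in which the activin-like ligand dawdle (daw) and the transcription factor sugarbabe (sug) take part. Transcripts were measured here in whole flies, so fewer cells of a type and less RNA per cell cannot be told apart.

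Amyrel had its highest intensities on the control diet at 2 days and its lowest on the high-sugar diet at 4 weeks. Its intensity (the linear signal of the probe set, normalized by the authors) in the control arrays at 2 days was 721 in replicate 1, 675 in replicate 2 and 1209 in replicate 3. On the high-sugar diet at 2 days the replicates gave 463, 459 and 277. Every high-sugar array at 2 days lay below every control array of that time, and control replicate 3 stood well above the other controls. At 4 weeks the control replicates gave 426, 563 and 455. The high-sugar replicates at 4 weeks gave 180, 202 and 151. These 3 arrays were the lowest of the 12 for Amyrel and did not overlap with any other group.

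The intensity of tobi followed the same order of groups over a much narrower range. The control replicates at 2 days gave 12823, 12827 and 13328. On the high-sugar diet at 2 days they gave 11724, 11008 and 11904. All high-sugar arrays at 2 days again lay below all control arrays of that time. The control replicates at 4 weeks gave 10987, 13479 and 12053, the widest spread of any group for tobi. On the high-sugar diet at 4 weeks they gave 10663, 10084 and 10024. Control replicate 2 at 4 weeks was the highest of all 12 arrays for tobi, and the 3 high-sugar arrays at 4 weeks were the lowest.

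**Figure D1:**
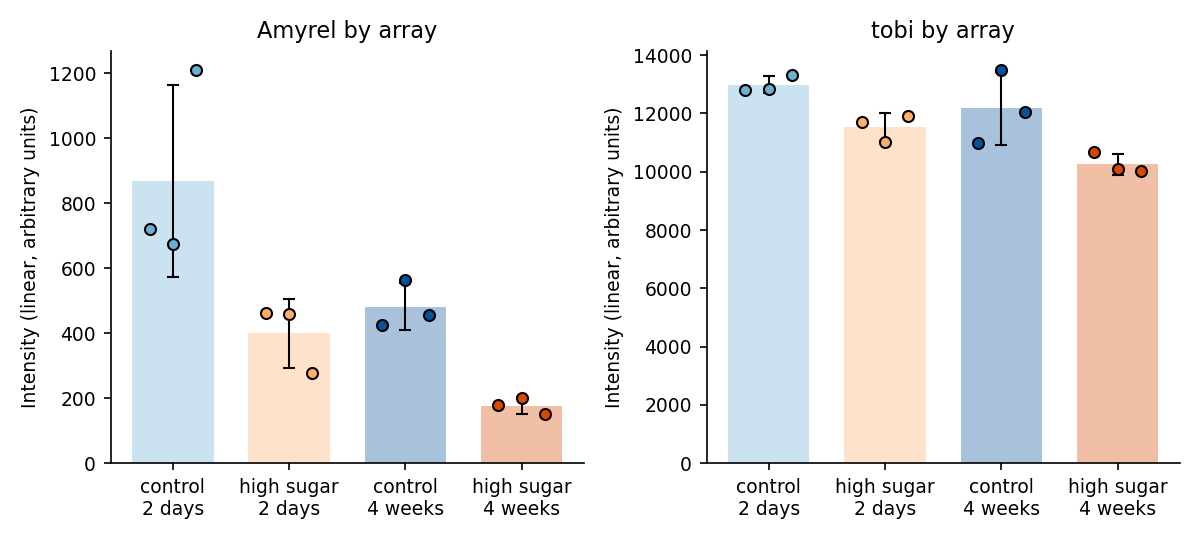
Intensity of Amyrel (left) and tobi (right) on each of the 12 arrays, with a point per array and a bar at the group mean, for the control and the high-sugar diet at 2 days and 4 weeks. Amyrel runs from 151 to 1209, and in both panels the high-sugar arrays of a time lie below the control arrays of that time.

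As group means, Amyrel had an intensity of 868 ± 296 (SD, n = 3) on the control diet at 2 days, 481 ± 72.2 on the control diet at 4 weeks, 400 ± 106 on the high-sugar diet at 2 days and 177 ± 25.5 on the high-sugar diet at 4 weeks (SD, n = 3 each). Among neighbours in this order, the control arrays at 4 weeks and the high-sugar arrays at 2 days overlapped, and no other pair of groups did. The gene tobi had means of 12993 ± 290.4, 12173 ± 1250, 11545 ± 474 and 10257 ± 352.5 in the same order of groups (SD, n = 3 each). For tobi the control groups of 2 days and 4 weeks overlapped, as did the control group at 4 weeks and the high-sugar group at 2 days. The high-sugar group at 4 weeks lay apart, its highest array at 10663 against a lowest value of 11008 at 2 days.

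At 2 days the Amyrel level was 2.15-fold lower on high sugar than on the control diet. The log2 fold change, high sugar minus control, was −1.11 with a standard error of 0.24 and a 95% interval from −1.62 to −0.60. The adjusted p of limma's moderated test over all genes was 0.109, so Amyrel did not pass the threshold of 0.05. Only 15 genes (0.144% of those tested) passed it at 2 days, and Amyrel's log2 fold change was the 39th lowest of the 10418. The tobi level was 1.13-fold lower, with a log2 fold change of −0.17 (SE 0.06, 95% interval −0.31 to −0.03) and an adjusted p of 0.463 in the limma fit. At 2 days 7.65% of all genes had all high-sugar arrays below all control arrays, as both of these genes did.

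At 4 weeks Amyrel fell 2.71-fold on the high-sugar diet. Its log2 fold change was −1.44 (SE 0.24, 95% interval −1.95 to −0.93), the 31st lowest of all genes, with an adjusted p of 0.00905 in limma. In this comparison 1.93% of the genes passed the threshold, 84 of them higher and 117 lower. The tobi level was 1.18-fold lower at 4 weeks, with a log2 fold change of −0.24 (SE 0.06, 95% interval −0.38 to −0.10). Its adjusted p in limma was 0.0721 and did not pass. Its control and high-sugar arrays did not overlap, which 9.79% of all genes showed in the same direction. The tobi value at 4 weeks depended on single control arrays: without control replicate 1 it was −0.31 (adjusted p 0.0223, limma), and without control replicate 2 it was −0.17 (adjusted p 0.139).

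The diet effect at 4 weeks was compared with that at 2 days directly. For Amyrel the log2 fold change at 4 weeks minus that at 2 days was −0.33 (SE 0.33, 95% interval −1.05 to 0.39, adjusted p 0.810 in limma). For tobi the difference was −0.07 (SE 0.09, 95% interval −0.27 to 0.12, adjusted p 0.849). Both intervals hold 0, but they are wide beside the effects themselves and do not show that the effects at the 2 times were equal. No gene passed in this comparison (0% of those tested with limma, and 757 genes at an unadjusted p under 0.05).

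Averaged over both times, Amyrel fell 2.42-fold on the high-sugar diet. The log2 value was −1.27 (SE 0.17, 95% interval −1.63 to −0.91), the 29th lowest of all genes, with an adjusted p of 0.00164 in limma. Over the same average tobi fell 1.15-fold, a log2 value of −0.21 (SE 0.05, 95% interval −0.30 to −0.11) and an adjusted p of 0.0293. In the average, 2.62% of all genes passed, 93 higher and 180 lower. The tobi call was lost when any of 7 single arrays was left out (each of the 3 control arrays at 2 days, high-sugar replicate 2 at 2 days, control replicate 3 at 4 weeks and high-sugar replicates 2 and 3 at 4 weeks), with log2 values from −0.21 to −0.19 and adjusted p-values from 0.0551 to 0.0797. The Amyrel call was kept in all 24 alternatives run for it.

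**Figure D2:**
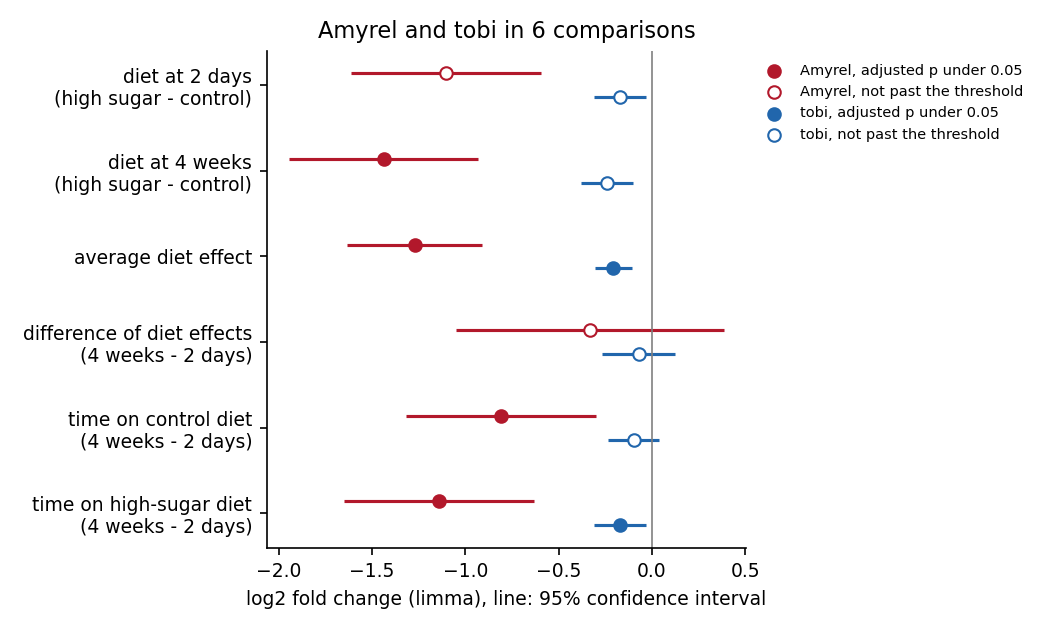
Log2 fold changes of Amyrel and tobi in the comparisons of diet and of feeding time, each point with its 95% interval from the limma fit. Amyrel's averaged diet effect of −1.27 lies well below tobi's of −0.21, and tobi's intervals are the narrower ones.

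Feeding time also separated the Amyrel arrays. On the control diet Amyrel fell 1.75-fold from 2 days to 4 weeks, a log2 fold change of −0.81 (SE 0.24, 95% interval −1.32 to −0.30, adjusted p 0.0197 in limma). All control arrays at 4 weeks lay below those at 2 days, as they did for 25.1% of all genes, and 33.1% of all genes passed the test. The Amyrel call needed single arrays: without control replicate 3 at 2 days, the array at 1209, the log2 value was −0.55 (adjusted p 0.0885), and without control replicate 1 at 4 weeks it was −0.73 (adjusted p 0.0750). On the high-sugar diet Amyrel fell 2.21-fold over the same time, a log2 fold change of −1.14 (SE 0.24, 95% interval −1.65 to −0.63, adjusted p 0.00223). In this comparison 42.6% of all genes passed, and 26.5% had all arrays at 4 weeks below all arrays at 2 days, as Amyrel and tobi did.

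For tobi the log2 fold change with time on the control diet was −0.10 (SE 0.06, 95% interval −0.24 to 0.04, adjusted p 0.248), and the groups overlapped. Without control replicate 2 at 4 weeks this value was −0.17 with an adjusted p of 0.0303. On the high-sugar diet tobi fell 1.13-fold with time, a log2 value of −0.17 (SE 0.06, 95% interval −0.31 to −0.03, adjusted p 0.0465 in limma). That call lay close to the threshold and was lost without any of 8 single arrays, with adjusted p-values from 0.0548 to 0.128 and log2 values from −0.17 to −0.15. Quantile scaling took it to −0.053 (adjusted p 0.497) and turned the control-diet value above to 0.019 (adjusted p 0.829). The 8 were the 3 control arrays at 2 days, high-sugar replicates 1 and 3 at 2 days, control replicate 3 at 4 weeks and high-sugar replicates 2 and 3 at 4 weeks.

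The pair differed in how their variation was divided. For Amyrel diet held 55.5% of the sum of squares over the 12 arrays on the log2 scale, time 32.6%, their interaction 0.946% and the spread within groups 11.0%. For tobi the shares were 52.5% for diet, 22.3% for time, 1.58% for the interaction and 23.6% within groups. Over all genes the medians were 5.69% for diet, 41.2% for time, 3.03% for the interaction and 37.1% within groups. The pair was chosen on its diet values, so its diet shares are a description. In absolute terms Amyrel was the noisier gene, with a standard deviation within groups of 0.347 on the log2 scale (higher than in 93.3% of the genes), whereas that of tobi was 0.0849 (higher than in 8.32%). Among the 100 brightest genes, of which tobi is 1, the median of this standard deviation was 0.0512, below the value of tobi. Over the 12 arrays the log2 intensities of Amyrel and tobi had a Pearson's r of 0.86 and a Spearman's rho of 0.87. The arrays share their groups, and after each group's mean was taken away the deviations of the pair had an r of 0.26.

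The averaged diet effect of Amyrel minus that of tobi was −1.07 on the log2 scale, with −0.94 at 2 days and −1.20 at 4 weeks. The value stayed between −1.14 and −0.93 in the 17 alternatives run for it. The signal of tobi was near the top of the array's range. It ranked between 5th and 54th from the brightest gene on an array and reached 66.9% to 87.5% of that array's highest value, while Amyrel reached 1.03% to 7.52%. Among the 100 brightest genes, of which tobi is 1, the 90th percentile of the absolute log2 fold change for diet was 0.104 at 2 days and 0.153 at 4 weeks. Over all genes it was 0.309 and 0.40. Of those 100 genes 6 had a larger absolute diet effect than tobi at 2 days and 4 at 4 weeks. The part of this brightness in tobi's small fold changes was not tested.

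The other genes of starch and maltose digestion were read from a list of 14, which includes Amyrel and tobi. Of these 12 were tested. The classical amylase genes Amy-p and Amy-d share a probe set annotated to both and are not reported. At 2 days none of the 12 passed in limma (9 had an unadjusted p under 0.05, as did 8.31% of all genes), 11 had a negative log2 fold change, and the median was −0.37 beside −0.0040 over all genes. At 4 weeks 2 passed (1.93% of all genes did) and both were lower, Amyrel and the maltase Mal-A4. There were 10 negative values, and the median was −0.28 (0.01 over all genes). Averaged over the times the median was −0.32, and 7 of the 12 passed, all lower, beside 2.62% of all genes. These were Amyrel, tobi and the maltases Mal-A2, Mal-A3, Mal-A4, Mal-A6 and Mal-A7. The counts and medians of the list include Amyrel and tobi, which were chosen as lower on high sugar in these same arrays. The part of Amyrel and tobi in them is therefore not independent evidence.

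Mal-A4 was the gene that passed at 4 weeks beside Amyrel. Its control intensities at 4 weeks were 5374, 5683 and 5105, and its high-sugar intensities were 2542, 2753 and 2861. All high-sugar arrays lay below all control arrays. Its log2 fold change was −0.99 (adjusted p 0.0277 in limma), and leaving out each of the 6 arrays at 4 weeks in turn ended the call every time, with an adjusted p of at most 0.0935. For the averaged diet effect Mal-A3 had a log2 value of −1.19 (adjusted p 0.0157), Mal-A4 −0.99 (0.00293), Mal-A2 −0.60 (0.0201), Mal-A7 −0.35 (0.0171) and Mal-A6 −0.20 (0.0386). Mal-A3 had values near those of Amyrel at each time, −1.27 at 2 days and −1.11 at 4 weeks, and passed at neither. Without high-sugar replicate 2 at 2 days its value at 2 days was −0.81, and its value at 4 weeks then passed (adjusted p 0.0204). The call of Mal-A6 was lost in 14 of its 24 alternatives and that of Mal-A2 in 5.

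Mal-B1 and Mal-A5 were the 2 genes of the list with an averaged log2 value above 0. Mal-B1 had control intensities of 2004, 902 and 2580 and high-sugar intensities of 3178, 2248 and 2315 at 4 weeks. Its groups overlapped, and its log2 fold change of 0.61 did not pass (adjusted p 0.298 in limma), after −0.19 at 2 days. Without control replicate 2 at 4 weeks it was 0.16, and without control replicate 3 it was 0.92. Mal-A5 had log2 fold changes of 0.08 at 2 days and 0.02 at 4 weeks. Amyrel and Mal-A5 were the members of the list that passed as lower with time on both diets: Mal-A5 by 0.64 on the log2 scale on the control diet (adjusted p 0.00109) and by 0.70 on the high-sugar diet (adjusted p 0.000402). Mal-A2 rose with time on the control diet (0.53, adjusted p 0.0318). That call was lost with no filter (0.0710) and without control replicate 1 (0.0909) or 3 (0.111) at 2 days or any control array at 4 weeks (0.0596 to 0.0764), with values from 0.46 to 0.54 without those arrays. Mal-B1 rose on the high-sugar diet (1.14, adjusted p 0.0116).

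**Figure D3:**
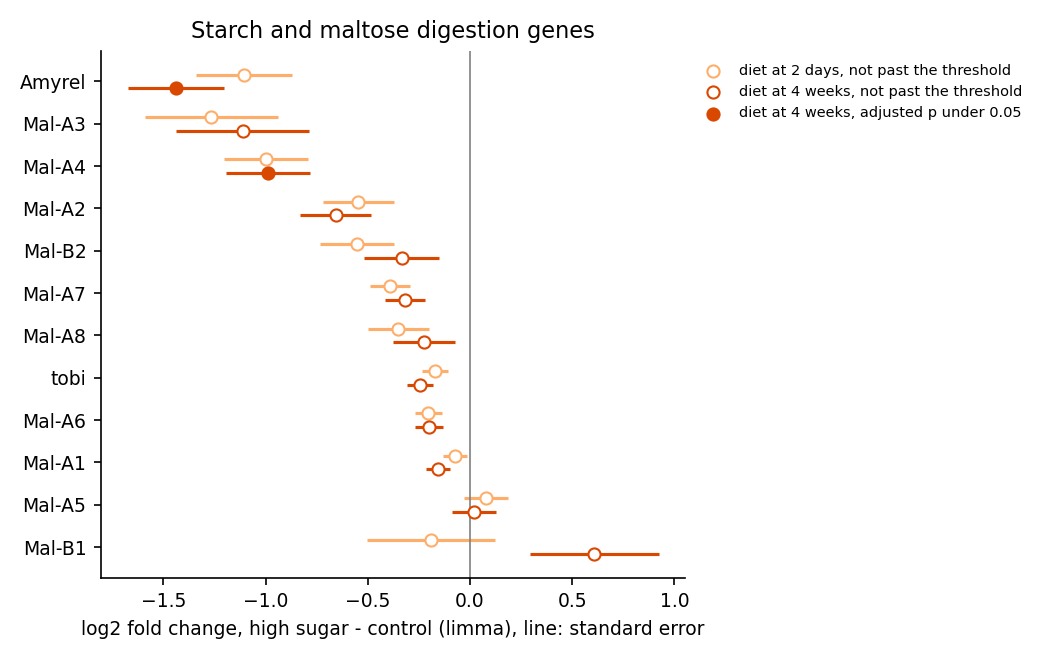
Log2 fold changes for diet (high sugar minus control) at 2 days and at 4 weeks for the 12 tested genes of starch and maltose digestion, with lines of 1 standard error and filled points for an adjusted p under 0.05. At 4 weeks Amyrel at −1.44 and Mal-A4 at −0.99 are the members that passed, and Mal-B1 at 0.61 lies on the other side of 0.

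Other glycosidases, enzymes that split sugar chains of glycogen, glycoproteins, glycolipids or trehalose, gave a reference group of 16 tested genes out of 21 listed. In this group 0 passed in limma at 2 days (4 at an unadjusted p under 0.05, where 8.31% of all genes were). At 4 weeks 0 passed (3 at an unadjusted p under 0.05, where 19.9% of all genes were). The median log2 fold change was −0.12 at both times, with 13 values negative and 3 positive at each. At 2 days LManIII (−2.77, adjusted p 0.320 in limma), LManVI (−2.23, 0.404) and LManV (−2.06, 0.551) had larger falls than Amyrel without passing. For each of them control replicate 2 at 2 days lay far below the other controls. The control replicates gave 949, 216 and 1086 for LManIII, 2831, 780 and 2759 for LManVI and 1524, 226 and 1591 for LManV. Averaged over both times, LManIII had −1.81 (adjusted p 0.122) and LManVI −1.64 (0.133), again below the value of Amyrel. In the average 1 passed, CG9485, the glycogen debranching enzyme, at −0.43 (adjusted p 0.0171). That call was lost without high-sugar replicate 2 at 4 weeks (adjusted p 0.0516). No test between this group and Amyrel or tobi was made.

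Signals that act upstream of digestive carbohydrases or of tobi were read from a list of 21 genes, of which 18 were tested; Ilp3, Ilp6 and Thor are not named on the array. At 2 days 0 passed in limma (4 at an unadjusted p under 0.05, beside 8.31% of all genes). At 4 weeks 3 passed, beside 1.93% of all genes. All 3 were higher on high sugar: daw, sug and the transcription factor cabut (cbt), which sugar sensing by Mondo-Mlx is known to induce. The daw intensities at 4 weeks were 196, 226 and 183 on the control diet and 506, 667 and 552 on the high-sugar diet. The groups did not overlap, in the opposite direction to Amyrel, as for 13.5% of all genes, and the log2 fold change was 1.51 (adjusted p 0.000331). The sug intensities at 4 weeks were 202, 488 and 237 against 1146, 1049 and 888, also without overlap, a log2 fold change of 1.84 (adjusted p 0.0166). The sug call was lost without control replicate 3 or high-sugar replicate 1 or 2 of 4 weeks (adjusted p up to 0.0732). For cbt the log2 fold change was 0.62 (adjusted p 0.00994).

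The hormone genes tied to tobi in earlier work gave no diet call. The insulin-like peptide genes Ilp2 and Ilp5, the hormone gene Akh, the insulin receptor InR and the transcription factor foxo did not pass in limma at 2 days, at 4 weeks or in the average. At 4 weeks their log2 fold changes were 0.16 for Ilp2, −0.25 for Ilp5, −0.17 for Akh, −0.06 for InR and 0.29 for foxo. With time Ilp5 fell on both diets, by 0.87 on the log2 scale on the control diet (adjusted p 0.00996) and by 1.06 on the high-sugar diet (adjusted p 0.00216). The AKH receptor gene AkhR had intensities of 322, 769 and 336 on the control diet at 4 weeks and 1223, 1045 and 952 on the high-sugar diet. Its log2 fold change of 1.29 had an adjusted p of 0.0506, just short of the threshold. It passed in 5 of 25 alternatives: without control replicate 2 at 4 weeks (1.70, adjusted p 0.00423), without high-sugar replicate 3 at 2 days (0.0459), with the mean of its probe sets (1.06, 0.0133), with median centring (0.0490) and with the filter at 50% (0.0461). Control replicate 2 at 4 weeks was the highest control array of that time for AkhR and sug, as it was for tobi.

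**Figure D4:**
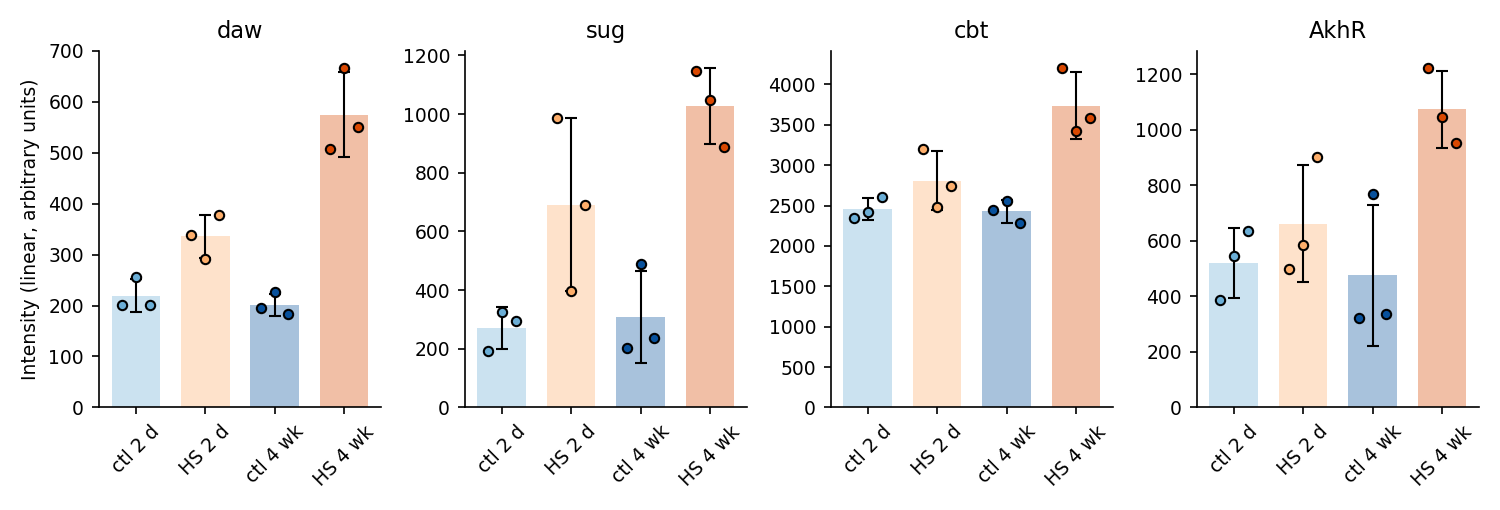
Intensity of daw, sug, cbt and AkhR on each of the 12 arrays, by group of diet (ctl, control; HS, high sugar) and feeding time (2 d, 2 days; 4 wk, 4 weeks), with a point per array. At 4 weeks the high-sugar arrays of sug lie between 888 and 1146 and its control arrays between 202 and 488.

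Marker genes of the tissues that make these enzymes were read beside the pair. The summed intensity of 22 tested midgut enzyme genes (of 26 listed) ran from 67527 to 83629 on the control diet at 4 weeks and from 49291 to 63021 on the high-sugar diet. Of the 22 genes 17 had a negative log2 fold change and the median was −0.28. At an unadjusted p under 0.05 in limma were 14 of the 22, beside 19.9% of all genes. Without overlap 11 of the 22 were lower (9.79% of all genes) and 0 higher (13.5% of all genes). In limma 3 of the 22 passed the adjusted threshold as lower and none as higher, where 1.93% of all genes passed. These were the serine proteases Jon25Bi (−3.55, adjusted p 0.00932 in limma), epsilonTry (−1.35, 0.00149) and Jon99Ci (−2.31, 0.0465). The Jon99Ci call was lost in 15 of 25 alternatives (adjusted p up to 0.127). In the other direction LysX had 1.5 and zetaTry 1.13, which did not pass (adjusted p 0.159 and 0.148); without control replicate 3 at 4 weeks LysX did (2.23, adjusted p 0.0311). At 2 days the sums were 67959 to 84006 and 69231 to 73708, overlapping. In limma 0 of these genes passed at 2 days (4 at an unadjusted p under 0.05, beside 8.31% of all genes), with a median of −0.12. For 13 fat body genes (of 18 listed) the sums at 4 weeks were 81092 to 92656 on the control and 76612 to 78973 on the high-sugar diet, and the median log2 fold change was −0.01, with 7 values negative and 6 positive. Passed were Lsp2 (−1.13, adjusted p 0.0299) and Sodh1 (−0.46, 0.00994), both lower. The Sodh1 call was lost in a fit of the compared arrays alone (adjusted p 0.0612). Of the 13 genes 3 were lower without overlap (9.79% of all genes were) and 3 higher (13.5% of all genes). The latter were AkhR, Lsd-1 (0.65, adjusted p 0.0849) and GNBP3 (0.39, adjusted p 0.104). Lsp2 alone read 6203, 12708 and 8186 on the control diet at 4 weeks and 5565, 3618 and 3050 on high sugar. Its call was lost in 9 of 25 alternatives (adjusted p up to 0.121), among them those without control replicate 2 or 3 or high-sugar replicate 2 or 3 at 4 weeks (−1.17 to −0.85). Without control replicate 2 at 4 weeks Lsd-1 passed (0.92, adjusted p 0.00233). At 2 days the fat body sums were 85613 to 90957 and 78227 to 81403. Markers of other tissues also differed with diet at 4 weeks. All 11 neuron genes had positive values (median 0.29, with Syn passed at 0.57, adjusted p 0.0402, and lost in 12 of 25 alternatives), as had all 11 muscle genes (median 0.15, none passed in limma, 2 at an unadjusted p under 0.05). Of 21 testis genes 20 had negative values, beside 47.9% of all genes (median −0.21, none passed). At an unadjusted p under 0.05 were 11 of them, beside 19.9% of all genes. With time on the control diet all 11 muscle genes, 10 of 12 accessory gland genes and 12 of 21 testis genes passed as lower. In that comparison 33.1% of all genes passed, 1961 of the 10418 as lower. Control replicate 2 had the highest midgut sum and the highest fat body sum of the 4-week arrays, as it had the highest Amyrel and tobi intensities. The part of these shifts in the Amyrel and tobi values was not tested. In these arrays labelled male, mean intensities were above the highest array median for 12 of 12 accessory gland genes, 18 of 22 testis genes and 1 of 12 female reproductive genes (Yp3, at 100.1).

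In the reference gene table Amyrel overlaps the span of gprs, and tobi that of rha. The log2 fold changes for diet of gprs were −0.36 at 2 days (adjusted p 0.695 in limma) and 0.16 at 4 weeks (adjusted p 0.697), and those of rha were −0.02 and 0.02. Neither passed. The nearest measured genes on the other side, with further genes between, were Picot for Amyrel (0.23 at 4 weeks, adjusted p 0.197) and alrm for tobi (0.28 at 4 weeks, adjusted p 0.187), which did not pass either.

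Likeness of pattern was measured by Pearson's r of log2 intensities over the 12 arrays. These share their groups, so that a high r describes group means as well as the spread within groups. For the 5 genes most like each member, the r of deviations from group means ran from 0.303 to 0.723 for Amyrel. For tobi it ran from 0.692 to 0.905. The genes most like Amyrel were CG3699 (0.944), the mitochondrial pyruvate carrier gene Mpc1 (0.934), Scp2 (0.929), CG2233 (0.929) and CG13086 (0.923). The genes most opposite to it were CG5773 (−0.974), Uqcc1 (−0.951) and CG8321 (−0.943). CG5773 had intensities of 2923, 2651 and 2614 on the control diet at 4 weeks and 4592, 4655 and 4941 on the high-sugar diet, the mirror of Amyrel's order. The genes most like tobi were Lsp2 (0.944), which codes for a larval serum storage protein of the fat body, CG2233 (0.943), CG31300 (0.936), Acbp5 (0.918) and CG13086 (0.914). The most opposite were Ndf (−0.961), CG5597 (−0.926) and CG31301 (−0.921). CG2233 and CG13086 stood among the 5 most like genes of both. Among the listed genes daw had the most negative r to both, −0.847 to Amyrel and −0.761 to tobi. Its deviations from group means had an r of −0.257 with those of Amyrel and 0.265 with those of tobi. Signs differed among the other listed genes. For example, chico was also negative to both (−0.793 and −0.674), and CG9485 was positive to both (0.841 and 0.738).

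**Figure D5:**
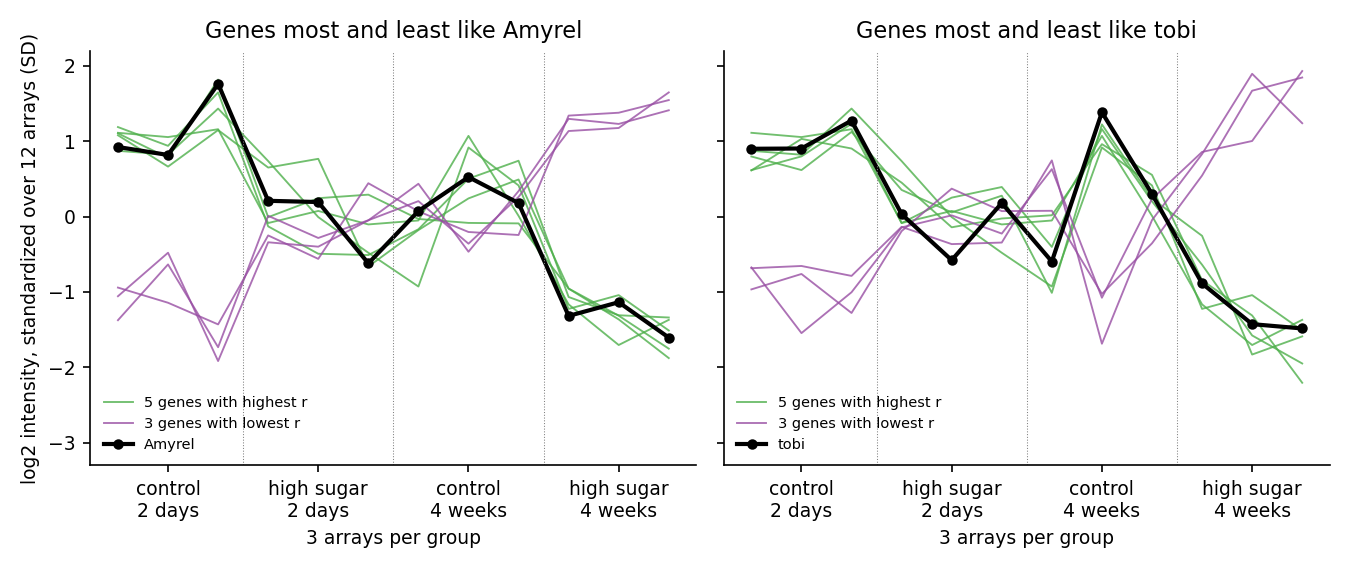
Log2 intensity, standardized for each gene to its mean and SD over the 12 arrays, for Amyrel (left) and tobi (right) with the genes of highest and lowest Pearson's r to each. The lines only join the 12 arrays in order of group and replicate, and at 4 weeks on high sugar both genes are at their lowest while CG5773 and Ndf are at or near their highest.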

How the data were processed

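The deposited values are linear intensities. The authors made and normalized them in dChip with its match/mismatch model, per the series text; the reference array, target level, detection calls and genome build are not given in the sources used here. The deposited table held 18869 probe sets with intensities from 1 (574 values at this limit) to 16579.5 and array medians of 86.97 to 93.42. Precision is limited by how many arrays there are.

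Groups came from the labels. Values below the pooled 20th percentile (11.78) were raised to that floor before taking log2. Left out were 100 control probe sets and the dimmest 30% by mean (log2 under 4.3). Of the probe sets, 13647 had 1 gene symbol, and 11352 of these passed the filter. The 402 with several symbols and the 4720 without one were not used. The brightest probe set per gene was kept, which left 10418 genes. In R 4.3.3, limma 3.58.1 fitted the 4 group means over all 12 arrays (lmFit, eBayes with trend; 8 residual and 5 prior degrees of freedom), with Benjamini-Hochberg adjustment over all genes in each of 6 comparisons and a threshold of 0.05. A single-gene exact test of 3 against 3 arrays cannot go below p = 0.1 and was not run. The fit was tested on simulated data. Figures used Python 3.11.15, pandas 2.3.3 and matplotlib 3.10.9.

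Genes named beside Amyrel and tobi were all members of the starch and maltose list, some of the members of other lists that passed or had 1 of the 3 smallest adjusted p-values, neighbours in the reference table, the 5 most and 3 least alike by Pearson's r over the arrays and the 3 most alike by deviations. The genes Ilp2, Ilp5, Akh, InR, foxo, Lsd-1, GNBP3, LysX, zetaTry and Yp3 were added after their values were seen. Members and lists were chosen with earlier results of these data known. The alternatives were quantile or median scaling, 2 other floors, the filter dropped or raised to 50%, eBayes without trend or robust, weighted arrays, a block for the replicate number, a fit of the compared arrays alone, other handling of several probe sets, and leaving out each array.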

Additional observations from a re-analysis of the deposited data

How the results depend on the processing

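Amyrel was lower on high sugar in every alternative at both times and in the average. Its log2 values ran from −1.26 to −0.84 at 2 days (adjusted p 0.075 to 0.349, limma), from −1.54 to −1.32 at 4 weeks (passed in all 25) and from −1.35 to −1.14 in the average. Its time effect on the control diet kept −0.81 but missed the threshold with no filter (adjusted p 0.0501), and ran from −0.97 to −0.55 when single arrays were left out.

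The averaged diet effect of tobi missed the threshold with quantile scaling (−0.17, adjusted p 0.0526), no filter (−0.21, 0.0743), no trend (−0.21, 0.118) and the replicate block (−0.21, 0.0579), and ran from −0.24 to −0.17 without single arrays. Its time effect on high sugar did so with quantile scaling (−0.053, 0.497), median centring (−0.15, 0.0652), no filter (−0.17, 0.0791), no trend (−0.17, 0.146) and the replicate block (−0.17, 0.0667), and ran from −0.20 to −0.15 without single arrays. Without single arrays its diet effect at 4 weeks ran from −0.31 to −0.17, its time effect on the control diet from −0.17 to −0.027 and its difference between times from −0.14 to 0.0044. Quantile scaling turned the time effect of tobi on the control diet to 0.019 (adjusted p 0.829). The causes were not tested.

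Among listed genes, small values changed sign without single arrays: Mal-B1 ran from −0.35 to 0.035 at 2 days and from −0.013 to 0.37 in the average, and Mal-A5 from −0.014 to 0.18 at 2 days and from −0.043 to 0.10 at 4 weeks. At 4 weeks Ilp5 ran from −0.44 to 0.020, InR from −0.31 to 0.062, gprs from −0.011 to 0.26 and rha from −0.16 to 0.14, the last also turning with array weights (−0.049). Mal-A4 at 4 weeks missed the threshold with no filter (0.0888), no trend (0.0541) and the replicate block (0.0543). With no filter, which tests more genes, sug at 4 weeks (0.0698) and Mal-A2 (0.0708), Mal-A3 (0.0656) and Mal-A7 (0.0567) in the average missed it too, the last also with no trend (0.0535).

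The count of genes passed for diet at 2 days, 15, became 3 with quantile scaling, 29 with median centring, 4 with no filter, 23 with the 50% filter, 4 with no trend, 26 with robust estimation, 27 with array weights and 1 to 23 without single arrays. At 4 weeks 201 became 119 with no filter, 127 with only the arrays compared and 82 to 264 without single arrays. The average's 273 became 178 with no filter and 150 to 376 without single arrays, the difference's 0 became 1 with no filter and up to 3, and the 3449 for time on the control diet 2139 to 3512.

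Same-numbered replicates of different groups had deviations with r from −0.23 to 0.15 over 18 pairs, 4 of them over 0.1. No pairs with unlike numbers were set beside them, so these values do not settle whether the numbers pair the samples. With the replicate block the adjusted p of Amyrel was 0.184 at 2 days, 0.0238 at 4 weeks, 0.00502 in the average, 0.0332 for time on the control diet and 0.00524 for time on high sugar. Whether the brightness of tobi limits its fold changes was not tested.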

Other observations

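Deviations from group means, which leave out diet and time, paired Amyrel and tobi with other genes than their full patterns did. Amyrel's deviations ran most closely with those of PCB, which codes for pyruvate carboxylase (r 0.973 over 12 arrays), CG7882 (0.953) and NaPi-T (0.94). Those of tobi ran with CG13833 (0.947), CG15170 (0.945) and Npc2f (0.927). These are the highest correlations over 10418 genes, with 8 residual degrees of freedom, given as a description. PCB read 7213 in control replicate 3 and 6143 in high-sugar replicate 3 at 2 days, where Amyrel had 1209 and 277. Npc2f read 989 and 1940 in control replicates 1 and 2 at 4 weeks, where tobi had 10987 and 13479. CG15170 was dim, with a mean of 33.1 beside array medians of 86.97 to 93.42. How far these r values rest on single arrays was not tested.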
